A study of Mus musculus with 12 samples.

Results

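The livers taken at ZT18, in the middle of the dark phase, were compared with the livers taken at the 5 other times of a mouse liver mRNA series. ZT is zeitgeber time, the hours since lights on, and lights went off at ZT12. Wild-type C57BL/6 males of 3 to 6 months were kept in a 12 hr light and 12 hr dark cycle, with no other treatment, and livers were taken every 4 hr from ZT2 to ZT22. The 12 livers form 2 independent series of 6 times, so ZT18 has 2 livers and the other times have 10. A liver here means 1 library, and the labels do not say how many animals it holds. Poly(A) RNA was sequenced, and the signal of a gene is its mean exon coverage in reads per base pair (rpbp), given here per 40000000 uniquely mapped sequences. A gene was counted as a ZT18 gene when both ZT18 livers lay above, or both lay below, all 10 other livers. Of the 20069 gene names of the table, 10198 exceeded 8 rpbp in at least 1 liver and are called expressed. Of these, 129 (1.26%) had both ZT18 livers above the others and 319 (3.13%) had both below, which gives 448 names in all. Another 122 names lay above and 95 below without reaching the minimum. Of the 129, 6 passed the minimum through the ZT18 livers alone.

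In nocturnal mice ZT18 lies within the hours of activity and feeding, so the liver receives nutrients and makes and exports plasma proteins. The liver clock is a loop in which CLOCK (or NPAS2) and BMAL1, the product of Arntl, activate Per and Cry genes through E-box letters. PER and CRY proteins then repress CLOCK and BMAL1, with CRY1 as a late and strong repressor. A further loop joins them, in which REV-ERB proteins (Nr1d1, Nr1d2) repress and ROR proteins such as RORA activate Arntl, Npas2, Clock and Nfil3 through ROR elements.

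Promoter windows that hold searched letters are shown here for genes of the clock, interferon and cyclic AMP groups, 250 bases before to 50 bases after a start site. They were picked for their match: the windows of Nr1d1, Nr1d2, Dbp, Npas2 and Clock and the other Arntl window held no E-box, ROR element core or D-box, and those of Psmb9, Ifi35, Rnf213 and Znfx1 held no interferon motif. The windows come from the RefSeq table of build GRCm38.p6, are written 5′ to 3′ on the strand of the gene, and have the searched letters in capitals. Cry1 holds CACGTG (E-box) 60 bases before the start, in the window chr10:85185005-85185304, minus strand. Nfil3 holds the reverse complement of TAGGTCA (ROR element core) in chr13:52980990-52981289, minus strand, and 1 of the Arntl windows holds TAGGTCA after the start, in chr7:113207261-113207560, plus strand. Isg15, a ubiquitin-like protein induced by interferon, holds overlapping matches to the interferon response motif (GAAA, any 2 bases, GAAA) in chr4:156200769-156201068, minus strand. Dusp1, a phosphatase that inactivates MAP kinases, holds TGACGTCA (cyclic AMP response) in chr17:26508423-26508722, minus strand, and an E-box that is not capitalised. The interferon and cyclic AMP letters, and the genes Isg15 and Dusp1 for this purpose, were chosen after the values were seen. The Cry1 window was searched for the cyclic AMP letters in the same way and did not hold them.
Cry1: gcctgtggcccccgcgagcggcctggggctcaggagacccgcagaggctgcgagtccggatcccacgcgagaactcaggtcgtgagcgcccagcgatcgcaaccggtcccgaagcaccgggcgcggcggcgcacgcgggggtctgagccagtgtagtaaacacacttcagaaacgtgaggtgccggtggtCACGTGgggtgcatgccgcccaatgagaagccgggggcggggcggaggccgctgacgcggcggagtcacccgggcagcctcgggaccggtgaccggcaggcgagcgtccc
Nfil3: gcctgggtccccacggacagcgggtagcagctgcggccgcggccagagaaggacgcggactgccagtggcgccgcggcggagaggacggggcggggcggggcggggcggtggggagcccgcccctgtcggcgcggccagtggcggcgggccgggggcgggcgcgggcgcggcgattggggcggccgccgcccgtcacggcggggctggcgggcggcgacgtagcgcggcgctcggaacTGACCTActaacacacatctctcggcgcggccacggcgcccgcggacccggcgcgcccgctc
Arntl: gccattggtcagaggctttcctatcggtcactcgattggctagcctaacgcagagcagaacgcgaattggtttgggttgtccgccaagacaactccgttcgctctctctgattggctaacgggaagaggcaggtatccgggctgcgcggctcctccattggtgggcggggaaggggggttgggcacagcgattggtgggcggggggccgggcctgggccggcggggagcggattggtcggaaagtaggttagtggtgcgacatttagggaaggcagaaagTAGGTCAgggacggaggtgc
Isg15: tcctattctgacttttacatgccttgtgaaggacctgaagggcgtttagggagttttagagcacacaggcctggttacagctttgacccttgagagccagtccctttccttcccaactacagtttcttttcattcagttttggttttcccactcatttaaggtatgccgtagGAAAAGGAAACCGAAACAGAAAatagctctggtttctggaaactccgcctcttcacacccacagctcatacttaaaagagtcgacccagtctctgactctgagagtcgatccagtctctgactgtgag
Dusp1: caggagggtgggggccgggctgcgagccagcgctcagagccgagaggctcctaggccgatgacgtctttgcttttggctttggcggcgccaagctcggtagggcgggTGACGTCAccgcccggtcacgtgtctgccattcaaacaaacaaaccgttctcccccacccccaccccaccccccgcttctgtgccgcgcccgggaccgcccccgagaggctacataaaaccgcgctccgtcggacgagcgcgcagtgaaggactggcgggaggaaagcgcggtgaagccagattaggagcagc

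Both strands of all windows were searched. CACGTG stood in 12.3% of the 6877 expressed genes with a window, in 10 of the 86 members above that have one (11.6%), and in 32 of the 234 members below (13.7%). TAGGTCA stood in 2.59% of expressed genes, in 6 of the 86 above (6.98%) and in 8 of the 234 below (3.42%). TGACGTCA stood in 3.69% of expressed genes, in 9 of the 86 above (10.5%) and in 9 of the 234 below (3.85%). The interferon response motif stood in 3.65% of expressed genes, in 1 of the 86 above (1.16%) and in 6 of the 234 below (2.56%), while it stood in 8 of the 12 interferon-stimulated genes with a window. A D-box (TTATGTAA or TTACGTAA) stood in 1 gene above and 2 genes below, against 1.00% of expressed genes. These shares are descriptions of letters and not of binding.

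The labelled tissue matched its markers. All 10 hepatocyte markers were expressed, with albumin (Alb) at a mean of 97960 rpbp, while none of 6 T and B cell markers reached the minimum. The 2 ZT18 livers shared less of their deviation from the other times than the livers of any other time did. Across the 10198 genes, the correlation of their log2 deviations from the gene mean was 0.11, against 0.17 at ZT22 and 0.34 to 0.76 at the 4 earlier times. This is a description across genes, which are not independent replicates. The livers of a time differed by a median of 1.12 fold at ZT18 and by 1.09 to 1.12 fold at the other times, and 191 genes differed by more than 2 fold at ZT18, against 113 to 285 at the other times. In the ZT18 liver of series 1, 377 genes had the highest and 867 the lowest of the 12 values, and in that of series 2, 569 and 909 genes. Each ZT18 liver had more than 8 rpbp for 8823 and 8914 genes, within the range of 8762 to 9108 over all livers.

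Compared with the other times, ZT18 had the fewest genes above all other livers. The same rule found 1056 genes above and 977 below at ZT2, 579 and 356 at ZT6, 273 and 426 at ZT10, 360 and 306 at ZT14, and 219 and 157 at ZT22. Counts below were lower at ZT14 and ZT22 than at ZT18, and the share of genes above was lowest at ZT18, with 28.8% of the 448 genes. This split depended on the scaling. After median-of-ratios scaling, which divided the signal of each ZT18 liver by 0.983, 204 genes lay above and 222 below, so that 47.9% lay above, and the lowest share was then at ZT2 (40.2%). Of the 129 genes, 127 lay above under both scalings, but only 217 of the 319 lay below under both.

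**Figure D1:**
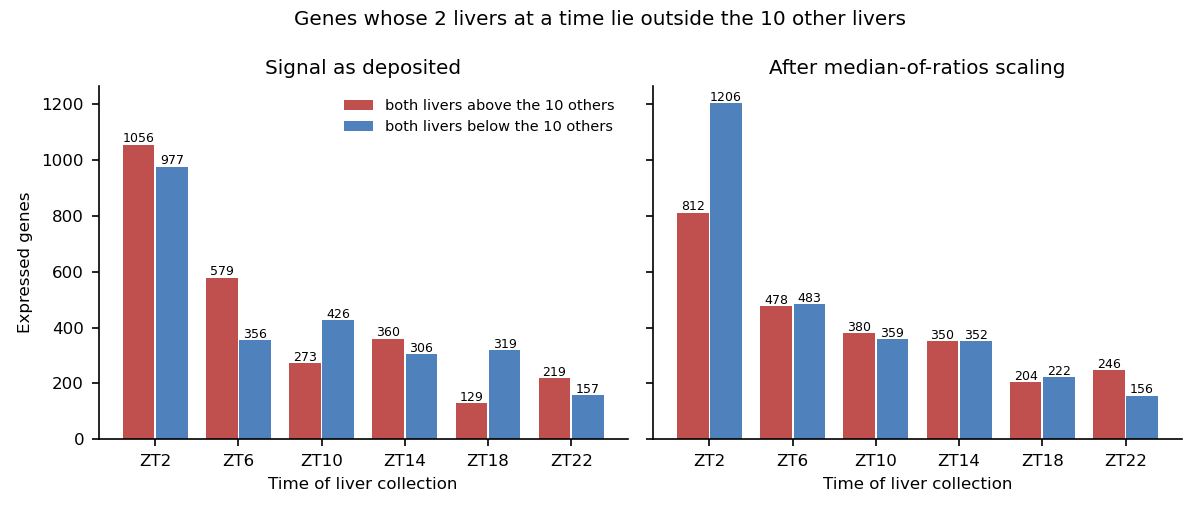
Number of expressed genes (y axis) whose 2 livers at a time (x axis) both lie above (red) or both below (blue) the 10 other livers, for the signal as deposited (left) and after median-of-ratios scaling (right). ZT18 has 129 genes above and 319 below on the left, and 204 and 222 on the right.

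Most of these differences were small. The median log2 difference between ZT18 and the mean of the 5 other times was 0.36 for the genes above (1.28 fold) and −0.31 for the genes below (1.24 fold). All fold changes here are on the log2(rpbp + 1) scale. Of the genes above, 24 exceeded 1.5 fold and 6 exceeded 2 fold, and of the genes below 33 and 6. The gap between the nearer ZT18 liver and the nearest other liver had a median of 0.05 on the log2 scale above and 0.06 below. Just inside the rule was Prosapip1 (now Lzts3), at 22.8 and 21.9 rpbp against at most 21.8 rpbp elsewhere. In the other direction Tm9sf1 was just inside, with 49.4 and 50.1 rpbp against at least 50.2 rpbp. The nearest genes outside the rule in each direction tied with a liver of another time. Several names stand for the same gene, and joining those with a common RefSeq symbol left 127 genes above and 312 below.

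The 24 hr component was strong more often in the genes above than in all genes, and about as often in the genes below. Its share of the variance of the 12 values (F24) exceeded 0.45 in 45.0% of the genes above, 32.3% of the genes below and 30.6% of all expressed genes. F24 used the same values as the rule, and so these shares carry no test. The genes below had their highest time mean at ZT2 in 139 of 319 cases, at ZT10 in 62, at ZT6 in 46, at ZT14 in 39 and at ZT22 in 33. The genes above had their lowest mean at ZT10 in 42 of 129 cases, at ZT2 in 34, at ZT6 in 24, at ZT14 in 19 and at ZT22 in 10. Of the genes below, 43.6% were thus highest at ZT2. ZT2 was the highest of the 5 other times in 30.9% of all expressed genes, and ZT10 was the lowest in 32.6% of the genes above and in 21.7% of all expressed genes.

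Differences were tested with limma on log2(rpbp + 1), with the 6 times as groups and the Benjamini-Hochberg adjustment over the 10198 genes. The p-values measure the spread between the 2 libraries of each time. ZT18 exceeded the mean of the 5 other times in 34 genes (0.333%) and lay below it in 22 genes (0.216%) at an adjusted p below 0.05. At an unadjusted p below 0.05, 561 and 905 genes passed. The number of calls depended on single livers, of ZT18 and of other times: there were 2 higher and 3 lower without the ZT18 liver of series 1, 1 and 1 without that of series 2, where the lone liver was assumed to vary like the other times, and 5 and 5 without the ZT2 liver of series 1. Over the 12 leave-outs the log2 difference was 1.51 to 1.62 for Cry1, 0.86 to 0.97 for Hacl1, −2.42 to −2.29 for Nr1d1 and −2.07 to −1.42 for Dbp. Of the 56 calls, 23 also met the rule of no overlap (12 above and 11 below), and in the other 33 at least 1 liver of another time lay beyond a ZT18 liver. Arntl and bmal1b are entries of the same gene among these calls, as are Gde5 and Prei4 (both now Gpcpd1). A call against the mean of 5 times need not be about ZT18. Moxd1, a monooxygenase-like protein, had 246 and 229 rpbp at ZT2 and at most 0.32 rpbp in the 10 other livers, and it was called lower at ZT18 although ZT18 was like ZT6, ZT10, ZT14 and ZT22.

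Among the genes above, Cry1 rose most of those that passed the test. It read 49.4 and 51.0 rpbp in the ZT18 livers, against 35.2 and 39.2 rpbp at ZT14, 37.8 and 26.2 rpbp at ZT22, and 6.04 to 19.6 rpbp at ZT2, ZT6 and ZT10. The log2 difference from the other times was 1.57 (SE 0.14, limma adjusted p = 0.0052). Its neighbours in time were closer: the differences of 0.42 from ZT14 and 0.66 from ZT22 did not pass (adjusted p = 0.30 and 0.24). Cry1 lies on chromosome 10, 84594447 to 84647799, in the mm9 annotation, on the minus strand.

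The other genes above that passed have varied known roles. Hacl1, a peroxisomal lyase of the alpha-oxidation of phytanic acid (chromosome 14, 32366091 to 32454472), had 332 and 343 rpbp at ZT18 and 141 to 231 rpbp elsewhere. Its log2 difference was 0.91 (SE 0.12, limma adjusted p = 0.029), and both livers stood far apart from the 10 others. Ces3, a carboxylesterase, had 2364 and 2007 rpbp against 459 to 1957 rpbp, and Es1 (now Ces1c), which did not pass, had 2573 and 2648 rpbp against 1412 to 2254 rpbp. Carboxylesterases are a family of related genes, and how far their unique reads can be told apart was not tested. Of the 11 expressed carboxylesterase names, 2 lay above and 0 below, beside 1.26% and 3.13% of all expressed genes. This group was formed after the members were seen.
Sphk2, which makes sphingosine-1-phosphate, had 42.6 and 54.8 rpbp against 24.0 to 40.2 rpbp (log2 difference 0.62, SE 0.10, limma adjusted p = 0.041), and S1pr2 (listed as Edg5), a receptor of this lipid, had 12.7 and 11.2 rpbp against at most 10.8 rpbp and did not pass. Sphk2 (chromosome 7, 52964837 to 52973372) overlaps the end of Dbp on the other strand, and the counting ignored strand, so their reads cannot be told apart in the overlap. Dbp had 6.92 and 4.04 rpbp at ZT18 and 193 and 241 rpbp at ZT6, where Sphk2 had 32.2 and 29.9 rpbp.
Mreg, a regulator of melanosome transport, had 99.0 and 102.8 rpbp against 37.8 to 83.4 rpbp (log2 difference 0.80, limma adjusted p = 0.027). Ahctf1 (the nucleoporin ELYS), with 39.4 and 41.6 rpbp against 18.5 to 36.1 rpbp, and Wrnip1, an ATPase that binds the Werner helicase, with 49.6 and 57.3 rpbp against 23.3 to 44.1 rpbp, passed with log2 differences of 0.64 and 0.71 (limma adjusted p = 0.031 and 0.041). Rtn4rl1 (0.69), Ablim3 (0.54), Dnmbp (0.52) and the unnamed transcript AK007545 (0.77) passed as well, with limma adjusted p-values between 0.0326 and 0.0495. Frat1, which inhibits GSK3 in WNT signalling, had 11.4 and 15.0 rpbp against 3.8 to 10.3 rpbp (log2 difference 0.98, limma adjusted p = 0.041), at a mean below 8 rpbp.

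**Figure D2:**
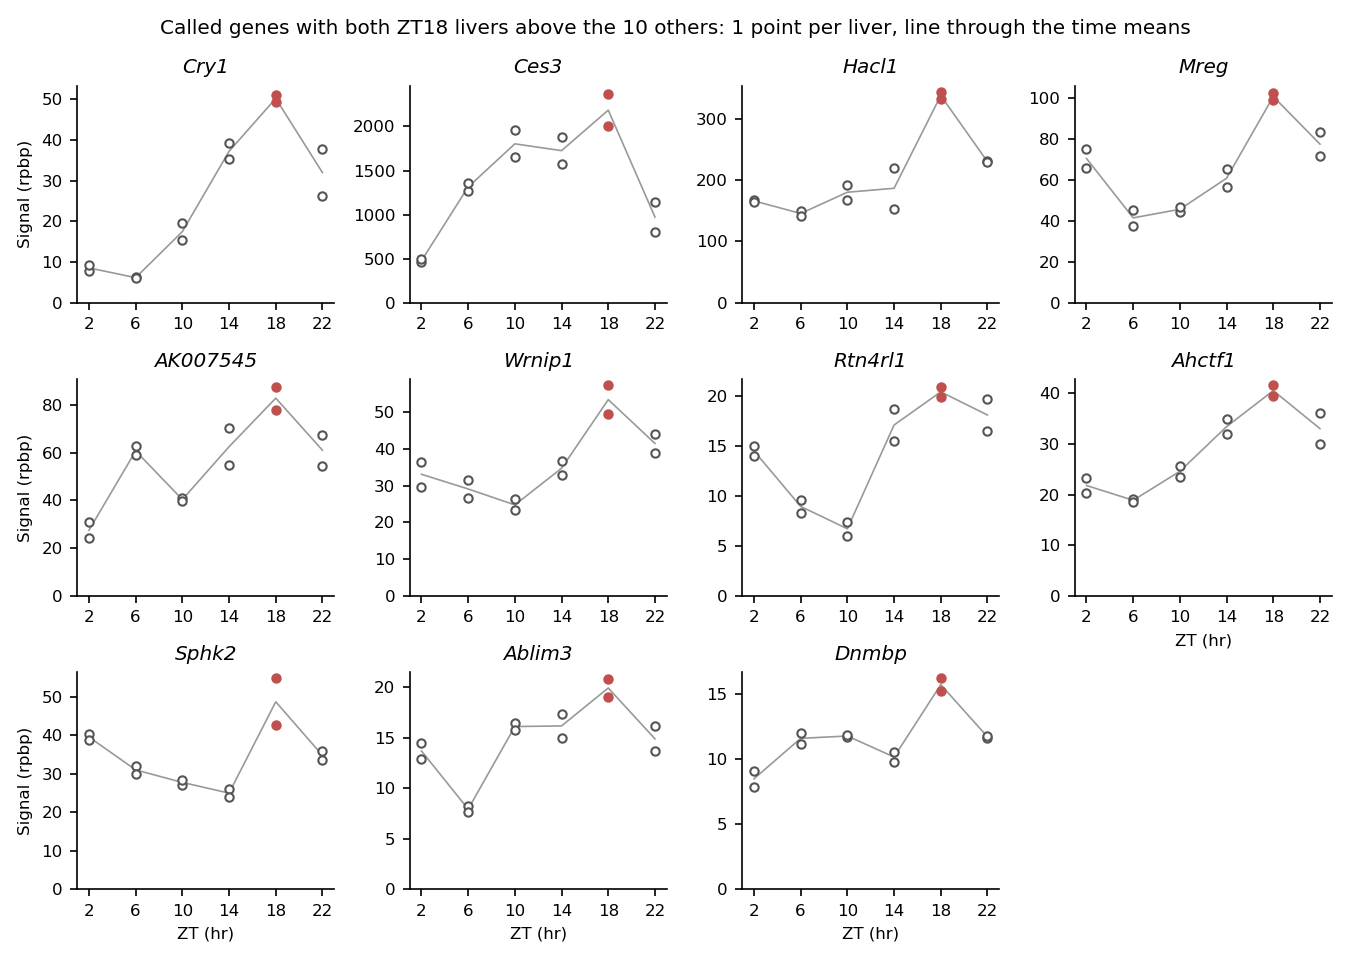
Signal in rpbp (y axis) by ZT in hr (x axis) for the 11 called genes with a mean of at least 8 rpbp and both ZT18 livers (filled) above the 10 others (open), 1 point per liver, with a line through the time means. Hacl1 and Cry1 stand clear of the other livers, while Rtn4rl1, at 19.9 and 21.0 rpbp, lies close to a ZT22 liver at 19.8 rpbp.

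Dusp1 had a large difference that did not pass, and livers of the same time disagreed. Dusp1 had 152 and 174 rpbp at ZT18 and 25.2 to 98.0 rpbp elsewhere, with 26.4 and 98.0 rpbp in the livers of ZT2. Its log2 difference of 1.38 (SE 0.48) did not pass (limma adjusted p = 0.25). It was the only one of 13 expressed glucocorticoid target genes without overlap, beside 1.26% of all expressed genes above and 3.13% below, and the median difference of that list was 0.13.

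Of the genes below with a mean of at least 8 rpbp, Usp18 changed most among those that passed, followed by Fkbp11 and Rarres1. At a lower mean, the unnamed transcript AK215081, named after its values were seen, passed with a larger difference, at 2.08 and 0.40 rpbp against 3.12 to 16.7 rpbp (−1.75, SE 0.30, limma adjusted p = 0.0495). Usp18, a protease that removes ISG15 from proteins and dampens interferon signalling (chromosome 6, 121195924 to 121220934), had 3.60 and 3.64 rpbp at ZT18, against 4.76 to 20.5 rpbp elsewhere. It was 2.29-fold lower than at the other times (log2 difference −1.19, SE 0.17, limma adjusted p = 0.031), with the ZT14 livers next at 5.40 and 4.76 rpbp. Fkbp11, a prolyl isomerase of the endoplasmic reticulum, had 4.52 and 5.04 rpbp against 6.56 to 23 rpbp (−1.08, SE 0.18, limma adjusted p = 0.0495). Rarres1, a retinoid-responsive gene, had 78.5 and 104.8 rpbp against 107 to 275 rpbp (−1.01, SE 0.14, limma adjusted p = 0.031), and overlapped the other livers after median-of-ratios scaling.

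The remaining genes below that passed differed less than these. Abcg8, which with ABCG5 exports sterols into bile, had 46.9 and 40.8 rpbp against 59.8 to 113 rpbp (−0.78, SE 0.13, limma adjusted p = 0.0495). Nmral1 had 5.32 and 4.68 rpbp against 6.44 to 22.2 rpbp, and its log2 difference of −0.93 had the lowest adjusted p of the genes below (0.023, limma). Yrdc, which makes the threonylcarbamoyl adenosine of transfer RNA, had 13.8 and 13.6 rpbp against 18.2 to 25.2 rpbp, a wide gap for its spread (−0.55, SE 0.08, limma adjusted p = 0.031). Nme7 (−0.53), Snurf (−0.50) and Lrrc57 (−0.41) passed with limma adjusted p-values of 0.0347, 0.0495 and 0.0416. Snurf shares its transcripts with Snrpn, which also lay below, and reads of the 2 cannot be told apart.

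**Figure D3:**
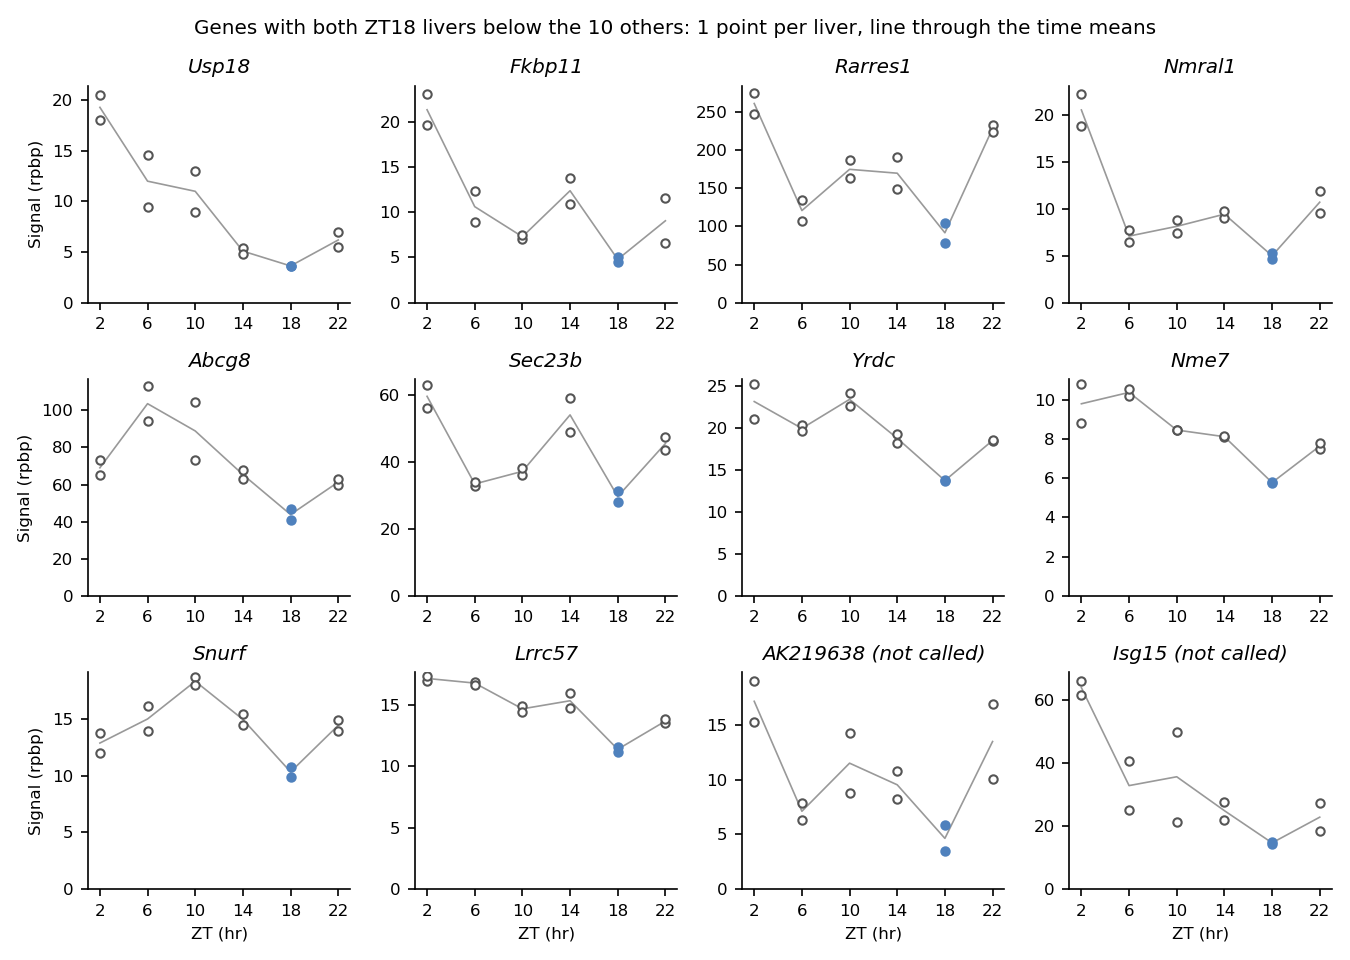
Signal in rpbp (y axis) by ZT in hr (x axis) for the 12 genes chosen by size among those with a mean of at least 8 rpbp and both ZT18 livers (filled) below the 10 others (open), 1 point per liver, with a line through the time means. Usp18 and Isg15 are highest at ZT2 and lowest at ZT18, while Sec23b is low at ZT6 and at ZT18, and AK219638 and Isg15 did not pass the test.

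Interferon-stimulated genes were mostly lower at ZT18 than at the mean of the other times, and ZT14 was close. Of the 16 expressed genes of the list, 14 had a lower mean at ZT18 and 3, Usp18 and Isg15 among them, lay below all other livers, against 3.13% of all genes, with Usp18 as the only call. The median log2 difference was −0.45, against −0.03 for all expressed genes, but −0.08 against ZT14 alone. The ZT14 liver of series 2 was lower as a whole, with a median deviation from the gene means of −0.56, against −0.32 and −0.41 in the ZT18 livers. The summed signal was 684 and 647 rpbp at ZT18 and 627 to 829 rpbp at ZT14. Isg15 had 15.0 and 14.3 rpbp at ZT18 and 18.4 to 66.0 rpbp elsewhere (−1.11, SE 0.28, limma adjusted p = 0.14). The livers of ZT2 were highest for Isg15 and Usp18. All 3 kept their place below the other livers after median-of-ratios scaling.

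A further 8 members below, none of which passed the test, have known roles in innate immunity; they were picked from the 319 genes after their values were seen, and innate immunity genes as a whole were not counted. The nucleic acid sensor Zbp1 had 3.24 and 3.92 rpbp against at least 4.20 rpbp, the kinase Ikbke 9.32 and 8.04 rpbp against at least 11.4 rpbp, and the immunoproteasome subunit Psmb9 20.4 and 27.8 rpbp against at least 35.8 rpbp. The helicase Dhx58, the ubiquitin ligase Rnf213, Ifi35, the guanylate-binding protein Gbp6 and the cytokine Il18 had log2 differences of −0.66, −0.57, −0.51, −0.49 and −0.64, with limma adjusted p-values from 0.13 to 0.26. All 9 expressed Kupffer cell markers had a lower mean at ZT18, with a median of −0.23 and 0 calls, and the ZT18 livers disagreed (median deviations −0.38 and 0.01). Their summed signal was 527 and 668 rpbp at ZT18 and 529 to 1020 rpbp elsewhere, and no marker of this list was at 0 in all livers. Both expressed neutrophil markers, of 5 listed, had a lower mean, with a median of −0.64, 0 calls and median deviations of −0.68 and −0.39 at ZT18. The summed signal of the neutrophil list was 4.48 and 5.68 rpbp at ZT18 and 2.52 to 21.96 rpbp elsewhere. The part of both cell types in the interferon result was not tested. In whole liver, fewer cells of a type and less RNA per cell cannot be told apart.

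Genes of protein entry into and export from the endoplasmic reticulum were mostly a little lower at ZT18, and ZT6 was about as low. Of the 36 expressed genes of the protein secretion list, 33 had a lower mean at ZT18, 8 lay below all other livers and 0 above, and the median log2 difference was −0.19. Over all expressed genes, 57.3% had a lower mean and 3.13% lay below. The list's median deviations were −0.19 and −0.13 at ZT18 and −0.14 and −0.13 at ZT6. Sec23b, a coat subunit of the vesicles that leave the endoplasmic reticulum (chromosome 2, 144381965 to 144416485), was the only call. It had 31.2 and 28.0 rpbp at ZT18, against 32.8 to 38.1 rpbp at ZT6 and ZT10 and 43.6 to 62.9 rpbp at the other times (−0.58, SE 0.09, limma adjusted p = 0.041). Its level rose and fell more than once in the day, and F24 was 0.066. The signal recognition particle brings ribosomes to the endoplasmic reticulum. Its subunit Srp68 had 40.2 and 37.0 rpbp against 41.5 to 61.0 rpbp, Srp72 66.2 and 70.0 rpbp against 71.7 to 96.9 rpbp, and Srp9 119 and 116 rpbp against 130 to 158 rpbp. Srp14 and the translocon subunit Sec61b (108 and 103 rpbp against 117 to 156 rpbp) also lay below, as did the vesicle coat genes Sar1a and Copb1. Their log2 differences were between −0.16 and −0.40, and their limma adjusted p-values between 0.12 and 0.40.

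**Figure D4:**
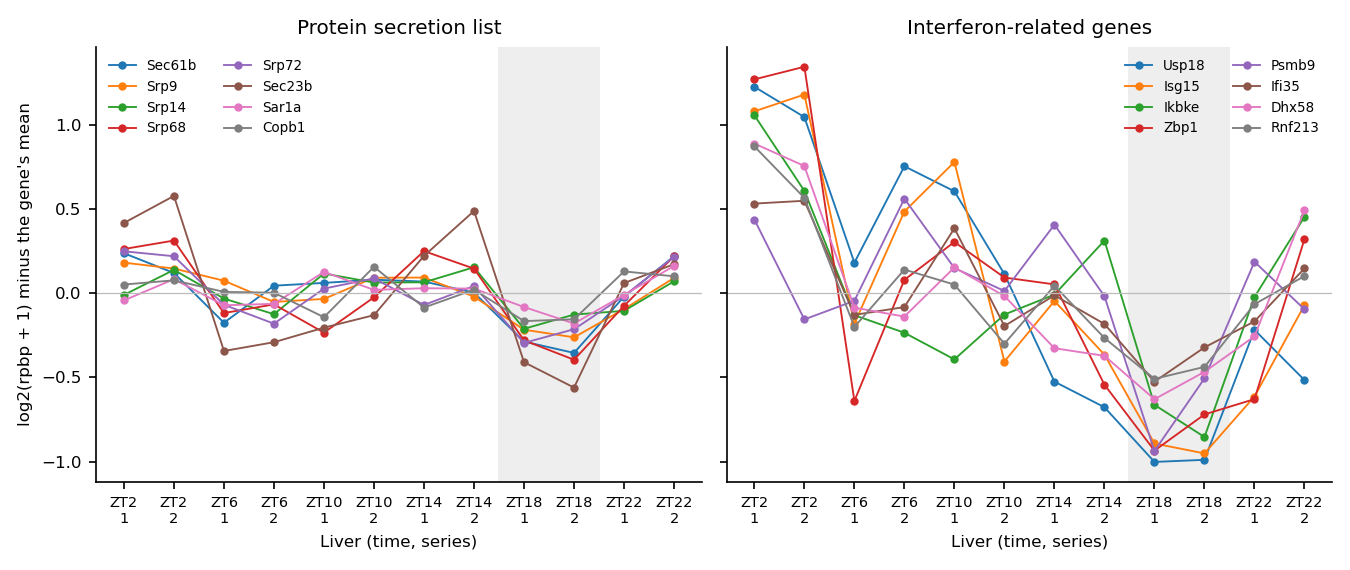
Log2(rpbp + 1) minus the gene's mean over 12 livers (y axis) by liver (x axis, time and series; ZT18 shaded), for the 8 genes of the protein secretion list and 8 interferon-related genes with both ZT18 livers below the others. The secretion genes lie in a narrow band apart from Sec23b, and the interferon-related genes are mostly highest at ZT2.

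Further gene families were counted after the members were seen, by their symbols and with no test. Their counts stand beside the 3.13% of all expressed genes that lay below. Of 7 expressed genes of the signal recognition particle and its receptor, 5 lay below and all 7 had a lower mean (median −0.30). Of these 5, Srp9, Srp14, Srp68 and Srp72 were already counted in the protein secretion list. Of 19 cytosolic aminoacyl-tRNA synthetases, 4 lay below (Lars, Nars, Rars and Farsb, the last listed as Farslb), of 51 translation initiation factors 9, of 78 mitochondrial ribosomal proteins 7, of 37 proteasome subunits 4 and of 14 genes of the COPII coat and its assembly 4, with 0 above in each. Medians were between −0.11 and −0.15 for these 5 families. Sec23b and Sar1a of the COPII genes were already counted in the protein secretion list. Of 79 cytosolic ribosomal protein genes, 0 lay above and 0 below, with a median of −0.04. Of 120 zinc finger proteins, 2 lay above (1.67%, near the 1.26% of all expressed genes) and 0 below, with a median of 0.05. Eif2s1, the alpha subunit of the initiation factor eIF2, had 25.9 and 25.0 rpbp against at least 28.1 rpbp (−0.39, limma adjusted p = 0.053). The scaling mattered here: after median-of-ratios scaling the counts below were 3 of 7, 3 of 19, 5 of 51, 7 of 78, 1 of 37 and 3 of 14, when the families are ordered as above, beside 2.18% of all expressed genes. With this scaling 2 mitochondrial ribosomal proteins and 5 zinc finger proteins lay above, beside 2% of all expressed genes. Of the secretion list 5 rather than 8 genes lay below, without Srp14, Srp72 and Sar1a.

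Smaller groups also had members below, beside 3.13% of all expressed genes as deposited and 2.18% after median-of-ratios scaling. The UFM1 and tRNA ligase groups are not among the 24 lists and were formed after the members were seen. UFM1 is a ubiquitin-like protein that is attached to ribosomes at the endoplasmic reticulum, and of its 8 expressed conjugation genes 3 lay below, among them Ufm1 (51.8 and 48.8 rpbp against at least 53.8 rpbp) and its ligase Ufl1 (listed as mKIAA0776), and 2 lay below after median-of-ratios scaling, Ufm1 no longer among them. Of 6 genes of the tRNA ligase complex, 3 lay below (4 after median-of-ratios scaling), with the ligase Rtcb (listed as D10Wsu52e) at 70.8 and 66.6 rpbp against at least 74.9 rpbp. Of the 29 expressed ribosome biogenesis genes, 28 had a lower mean and 3 lay below (Dkc1, Bysl and Nhp2, the last listed as Nola2), with a median of −0.15 and 0 calls. ZT6 was as low for this list, with median deviations of −0.12 and −0.13 at both times, and only Dkc1 stayed below after median-of-ratios scaling. Derl1 was the 1 of 26 endoplasmic reticulum stress genes that lay below, and 25 had a lower mean. That list was lower at ZT6 (median deviations −0.32 and −0.23) and ZT10 (−0.41 and −0.21) than at ZT18, where the livers disagreed (−0.20 and −0.02). Also below were Atg13 (listed as D2Ertd391e) and Atg16l1 of the 27 autophagy and lysosome genes, of which Atg16l1 overlapped after scaling. Pfkfb3, a regulator of glycolysis, had 2.84 and 2.76 rpbp against 3.28 to 8.92 rpbp (−0.80, SE 0.17, limma adjusted p = 0.091).

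Some cell cycle genes lay below the other livers at ZT18, and none passed the test. Ccnd1 (cyclin D1) had 11.1 and 11.2 rpbp against 12.6 to 26.9 rpbp (−0.80, SE 0.14) and just missed the threshold (limma adjusted p = 0.051). Its partner Cdk4 had 27.0 and 31.9 rpbp against 34.1 to 50.3 rpbp, Cks1b 10.8 and 6.64 rpbp against 14.3 to 20.2 rpbp, and Cdk7 14.1 and 13.8 rpbp against 16.4 to 25.5 rpbp. They are 4 of 10 expressed genes in a group of CDK4 to CDK7 and other cell cycle genes, beside 3.13% of all expressed genes. The group was formed after the values were seen, and all 4 lay below under both scalings. In the cell cycle and growth arrest list, 1 of 12 expressed genes lay below, 8 had a lower mean and the median was −0.09. Srm, the spermidine synthase, had 24.2 and 26.0 rpbp against 26.8 to 65.6 rpbp (−0.69, limma adjusted p = 0.052).

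The clock genes were called more often than they met the rule of no overlap, since other times reached the same levels. Among activators, Arntl had 23.5 and 29.4 rpbp, near 25.8 and 27.7 rpbp at ZT22, and Clock 34.7 and 35.8 rpbp, near 38.2 and 37.0 rpbp at ZT22. Npas2 had 3.84 and 4.60 rpbp and was higher still at ZT22, with 10.2 and 6.36 rpbp. These 3 exceeded the mean of the other times (limma adjusted p = 0.0313, 0.0495 and 0.0313), while Rora did not pass (0.13, limma adjusted p = 0.55). None of these 4 activators met the rule of no overlap.

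Among repressors, Nr1d1 was near its lowest, with 4.08 and 3.84 rpbp at ZT18, 3.8 and 6.60 rpbp at ZT14 and 10.5 to 142 rpbp at the other times (−2.35, SE 0.18, limma adjusted p = 0.0022). Nr1d2 had 15.0 and 16.04 rpbp, between the ZT22 livers at 13.4 and 19.2 rpbp (−1.43, SE 0.14, limma adjusted p = 0.0061). Of the 9 expressed repressors, Cry1 was called higher, these 2 were called lower, and the other 6 did not pass. Per1, Per2 and Per3 stood at 4.64 and 2.08, 15.2 and 12.0, and 4.56 and 5 rpbp, between higher levels from ZT6 to ZT14 and lower ones at ZT2 and ZT22. Against the mean of the other times they differed by −0.34, −0.04 and −0.34 (limma adjusted p = 0.47, 0.87 and 0.23). Cry2, Bhlhe40 (listed as Bhlhb2) and Ciart (listed as Gm129) differed by 0.33, 0.30 and −1.28 (limma adjusted p = 0.24, 0.63 and 0.076), and the 2 livers disagreed on Bhlhe40, with 193 and 107 rpbp.

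Of the PAR bZIP factors, which act on D-boxes, the activator Dbp was low, with 6.92 and 4.04 rpbp, though its lowest values of 1.48 to 3.8 rpbp came at ZT22 and ZT2. It was called lower (−1.74, SE 0.22, limma adjusted p = 0.027), and the repressor Nfil3, with 61.1 and 78.8 rpbp at ZT18 and 78.0 and 87.4 rpbp at ZT22, was called higher (0.76, SE 0.12, limma adjusted p = 0.039). Tef (0.05) and Hlf (−0.05) did not pass (limma adjusted p = 0.86 and 0.81).

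The neighbouring times show what set ZT18 apart on either side. Against ZT14, 14 genes were higher (0.137%) and 10 lower (0.0981%), and against ZT22, 3 genes were higher (0.0294%) and 1 lower (0.00981%). At an unadjusted p below 0.05, 655 and 932 genes passed against ZT14, and 503 and 723 against ZT22. The genes named in this paragraph were chosen after the calls were seen. Per2 fell from 35.96 and 40.04 rpbp at ZT14 to 15.2 and 12.0 rpbp at ZT18 (−1.42, limma adjusted p = 0.0068) and Per3 from 15.0 and 13.8 to 4.56 and 5 rpbp (−1.42, limma adjusted p = 0.015). Myc, a growth-promoting transcription factor, fell from 13.96 and 13.2 to 1.36 and 1.72 rpbp (−2.52, SE 0.30, limma adjusted p = 0.022), Tfrc, the transferrin receptor, from 69.9 and 116 to 19.8 and 20.1 rpbp (−2.12, SE 0.28, limma adjusted p = 0.031), and the heat shock chaperone Hsp110 from 42.2 and 47.7 to 23.2 and 22.04 rpbp (−0.96, limma adjusted p = 0.030). Clpx, a mitochondrial protease subunit, rose from 146 and 123 to 310 and 298 rpbp (1.18, limma adjusted p = 0.020) and was as high at ZT22. Npas2 was listed at 0 in both ZT14 livers and was among the 14 higher genes.

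The 3 genes that were higher at ZT18 than at ZT22 were Per3 (4.56 and 5 against 1.08 and 1.28 rpbp), the kinase Wee1 (12.2 and 8.60 against 3.44 and 2.80 rpbp) and Tef (66.8 and 53.9 against 25.2 and 23.6 rpbp), each with a limma adjusted p of 0.025. The gene that was lower was Slc39a2, a zinc transporter, which also differed from ZT14 and from the mean of all other times. It had 1.44 and 0.88 rpbp at ZT18, 5.40 and 8.32 rpbp at ZT14 and 8.72 and 6.44 rpbp at ZT22, so that its level dipped between high values, though it was as low at ZT2 and ZT6, with 1.44 to 2.00 rpbp. The comparisons share the ZT18 livers and are not independent of each other.

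Some metabolic genes outside the rule of no overlap were called. Ppp1r3c, which targets a phosphatase to glycogen, had 417 and 468 rpbp at ZT18 and 473 and 279 rpbp at ZT22, against 47.6 to 189 rpbp earlier (1.58, SE 0.19, limma adjusted p = 0.023). Asl, argininosuccinate lyase of the urea cycle, had 688 and 682 rpbp, between 655 and 743 rpbp at ZT14 (0.55, SE 0.09, limma adjusted p = 0.0495). Nr1i3, the xenobiotic receptor CAR, was called higher at 0.41 (limma adjusted p = 0.0495) although it was higher still at ZT6, ZT10 and ZT14, since ZT2 and ZT22 were low.

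The other lists gave few or no members. Cholesterol synthesis and uptake had a lower mean in 22 of 24 genes and a median of −0.24, with 0 calls and 0 genes without overlap; the median was −0.51 against ZT14 alone. Its ZT18 livers disagreed, with median deviations of −0.42 and 0.01, and the ZT2 livers were low too, at −0.43 and −0.32. The acute phase list had a lower mean in 19 of 22 genes and a median of −0.42, again with 0 calls and 0 without overlap. Its median deviations were −0.25 and −0.28 at ZT18, lower still at ZT6 (−0.72 and −0.57) and ZT10 (−0.41 and −0.51), and high at ZT2 (1.12 and 1.15), while the livers of ZT22 disagreed (−0.40 and 0.84). PPARA fasting targets had a higher mean in 17 of 22 genes and a median of 0.14, with 0 calls. Its ZT18 livers disagreed (median deviations 0.38 and 0.02) and the ZT6 livers were higher (0.53 and 0.59). Of its genes, Cyp4a10 (1.60, limma adjusted p = 0.061) and Pdk4 (1.40, limma adjusted p = 0.083), named after their values were seen, differed by more than the median and did not pass. Heat shock chaperones had a median of 0.01 against all times and −0.22 against ZT14, and fatty acid synthesis (0.05), bile acid synthesis and transport (0.16), insulin and IGF signalling (0.04), NRF2 and antioxidant genes (−0.02), direct clock output (−0.22) and cold-inducible RNA-binding proteins (−0.02) had 0 calls. Endothelial markers were slightly high, with a higher mean in 9 of 9 genes, 0 calls, and a summed signal of 289.0 and 298 rpbp against 247 to 288.9 rpbp. By median deviation ZT6 was as high, with 0.22 and 0.10, against 0.07 and 0.10 at ZT18. Sox18, an endothelial transcription factor that was named after its values were seen, lay above the others (11.2 and 11.4 rpbp against at most 10.6 rpbp), and the part of endothelial cells in the genes above was not tested.

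**Figure D5:**
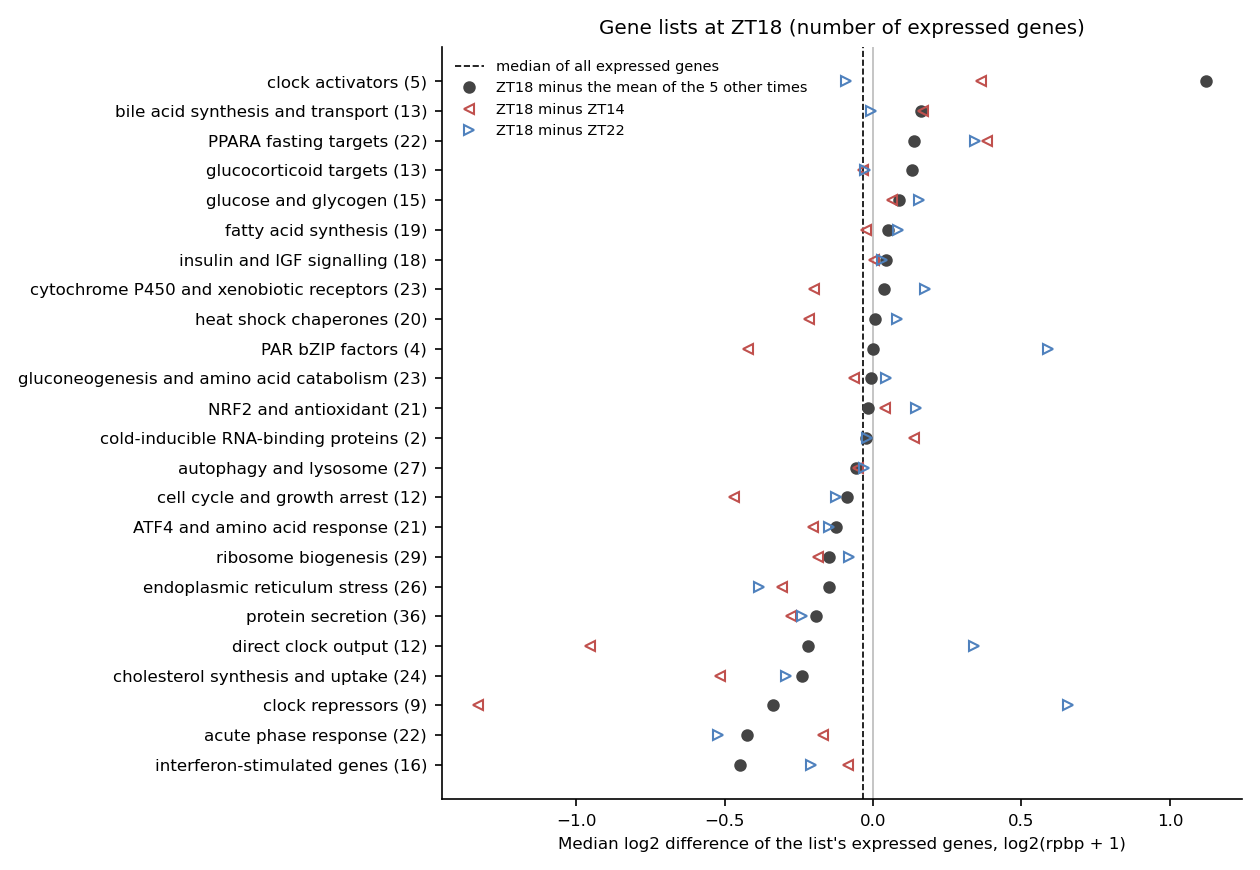
Median log2 difference of the expressed genes of each list (x axis; lists on the y axis with their number of expressed genes) for ZT18 against the mean of the 5 other times (filled), ZT14 (left triangles) and ZT22 (right triangles), with the median of all expressed genes at −0.03 (dashed). Interferon-stimulated genes lie lowest at −0.45, and the neighbouring times lie apart most for the clock repressors.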

How the data were processed

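Liver mRNA of 12 mouse libraries was analysed, 2 at each of 6 times, and groups were taken from the sample labels. The labels do not say how many animals a library holds. Per the submitters' processing notes and the study's methods, the authors mapped the reads with TopHat to mm9 (CASAVA 1.8 is also named), normalised by uniquely mapped sequences, and counted over the merged exons of all isoforms without regard to strand. The deposited signal is mean exon coverage in reads per base pair per 10000000 sequences. It was multiplied by 4. The table holds coverage and no read counts; coverage was not turned into reads, and no counting interval or count test is given here. The authors also deposited F24 as a fraction of variance, a phase, and a p-value for each gene; these columns hold their own rhythm analysis and were not used. F24 was recomputed as the share of the variance of the 12 values in the 24 hr component. The columns headed ZT20 were taken as ZT22, as in the labels. No column of values was left without a sample.

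Differences were tested with limma 3.58.1 (R 4.3.3) on log2(rpbp + 1) in genes above 8 rpbp in at least 1 liver, with 6 time means, and p-values were adjusted by Benjamini-Hochberg; the test was checked on simulated data. Genes named were the 12 largest differences per direction among called genes without overlap and a mean of at least 8 rpbp (filled with uncalled genes), up to 4 called members per list and any without overlap, all clock genes, and the genes at the edge of the rule; others are marked, and some genes the rule names are not reported here. The members, 24 gene lists and 9 marker lists were chosen with earlier results of these data known. Alternatives were other pseudocounts and minimums, median-of-ratios scaling, a trend, a series block, 2 groups, and leaving out each liver. Gene positions are from the mm9 annotation, and promoter windows from RefSeq.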

Additional observations from a re-analysis of the deposited data

How the results depend on the processing

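Directions were kept far more often than calls. Over all alternatives, 961 values of named genes kept direction and side of the threshold, 352 lost the call, 12 gained it and 5 turned direction. Of the 34 higher and 22 lower calls against the 5 other times, 5 and 3 remained in number with no expression minimum, 12 and 5 with a replicate block, and 0 and 0 with 2 groups in place of 6 times. Lower calls numbered 40 with a mean of at least 8 rpbp, 39 with a mean-variance trend, 37 with a minimum of 16 rpbp and 13 with median-of-ratios scaling. Against ZT14, higher and lower calls numbered 25 and 17 with a mean of at least 8 rpbp, 29 and 22 with the trend, 24 and 19 with a minimum of 16 rpbp, and 5 and 3 with no minimum, and higher calls 9 with the replicate block. Against ZT22 they numbered 12 and 5, 10 and 3, and 12 and 6 under the same 3 settings; higher calls were 7 with median-of-ratios scaling and 0 with no minimum, lower calls 2 with a pseudocount of 0.1 rpbp, and the replicate block left 0 and 0. Genes above all other livers numbered 251 with no minimum and 204 with median-of-ratios scaling. The cause of these moves was not tested.

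Leaving out 1 liver in turn gave 1 to 38 higher and 1 to 27 lower calls against the other times. Higher and lower calls numbered 1 to 24 and 0 to 18 against ZT14, and 0 to 13 and 0 to 21 against ZT22. Genes above numbered 139 to 632 and genes below 340 to 1073. Without a liver of another time, fewer livers had to be passed. Without a ZT18 liver, only 1 ZT18 liver had to pass the 10 others. Against the other times, calls fell to 5 and 5 or 6 and 6 without a ZT2 liver, 8 and 7 or 11 and 10 without a ZT6 liver, 11 and 6 or 10 and 7 without a ZT14 liver, 12 and 12 without the ZT10 liver of series 1, and 19 higher calls without the ZT22 liver of series 2. Against ZT14, 2 and 1 remained in number without the ZT14 liver of series 2 and 1 and 0 without the ZT18 liver of series 2. Of the 12 leave-outs, Nr1d1 kept its call in 11, Cry1 and Nr1d2 in 10, and Dbp and Nmral1 in 9, while AK007545, Asl, Clock, Lrrc57, Sphk2, Snurf and Sec23b kept it in 0. Leaving out 1 liver in turn, differences that were not called changed sign for Per1 (−0.77 to 0.10), Per2 (−0.20 to 0.11), Bhlhb2 (−0.12 to 0.73), Tef (−0.10 to 0.20) and Hlf (−0.16 to 0.063), in each case through 1 of the ZT18 livers. The differences between series at ZT18 correlated with those at the other times at −0.09 to 0.21 across genes, with the highest value at ZT22. Whether the livers of a series share more than a number was not tested. Counting error was not computed here, so the precision of low signals such as Npas2 is not given.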
